A study of Homo sapiens with 24 samples.

Results

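Mitochondrial ribosomal proteins were followed through 3 estrogen receptor-positive breast cancer cell lines kept at low or high glucose. Members were all genes of the deposited expression table whose symbol is MRPL or MRPS followed by a number and at most 1 letter. This gave 77 of 18889 genes, under 76 symbols, of which 47 genes carry MRPL and 30 carry MRPS symbols. MRPL stands for the large and MRPS for the small subunit, but the symbol does not always name the place: MRPS18A and MRPS30 are known as proteins of the large subunit. Counts of MRPL and MRPS members below follow the symbol. MRPS17 occurs once as the gene itself and once as a read-through transcript that shares 1553 exon bases with MRPS17 and its neighbor ZNF713.

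Mitochondria carry their own ribosome, which translates the few mRNAs encoded by mitochondrial DNA, all of them for subunits of the respiratory chain and ATP synthase. Its RNA is made inside the organelle, whereas every protein of its large and small subunits is encoded in the nucleus, translated in the cytosol and imported. The proteins are present in fixed proportions in the finished particle, and their nuclear genes lie scattered over the chromosomes.

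The lines, given in this order wherever 3 values stand together, were MDA-MB-175, then ZR-75-30, then HCC1500. They are established human breast cancer lines, and the labels name no transgene. Each was grown for 48 hours at 5 mM glucose (low glucose, LG) or 25 mM glucose (high glucose, HG), with 4 cultures per condition and 24 samples in all. The study's methods give serum-free media for both conditions after conditioning in low glucose, so serum withdrawal is shared by every group. No group with a matched osmolyte is among the 24 samples, so added glucose and added osmolarity cannot be told apart in these data. For proliferation and migration, the study reports no difference between controls with and without added mannitol. Nothing in the labels says whether the 4 cultures of a group were grown on separate days, and p-values therefore measure the spread between these samples, which may be technical. RNA-seq of bulk cultures does not tell fewer cells of a type from less RNA per cell.

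Deposited values were normalized read counts. Multiplying a sample's values by its own constant returns whole reads, of which each sample had between 9140024 and 17998819. The HCC1500 LG cultures were sequenced more deeply (13190982 to 17998819 reads) than the HCC1500 HG cultures (9423472 to 12140912 reads), with no overlap. The median member had 489 reads per sample, and 75 of the 77 members had at least 20 reads in every sample. ESR1, the estrogen receptor gene, had mean LG values of 335, 618 and 3178 in the 3 lines, and all 8 luminal marker genes examined were detected, although CDH1, the epithelial cadherin gene, had a mean of only 55.6 in ZR-75-30 LG. Of the mesenchymal genes looked at, VIM had mean LG values of 14.2, 0.756 and 0.617 and COL1A1 of 75, 105 and 241. TXNIP, a transcript known to follow glucose supply, separated the conditions in every line, with rises of 0.39 ± 0.04, 0.76 ± 0.04 and 0.99 ± 0.03 (log2, SE).

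One library stood apart. In HCC1500 HG replicate 3, all 77 members were above the mean of the other HCC1500 HG cultures, by a median of 1.12 log2 units, against 0.26 for all genes. Its difference from its group ran with exon length across 13114 genes (Spearman correlation -0.68, against -0.37 to 0.31 in the other 23 samples), shorter genes being higher. Members are short: their median exon length was 1260 bases against 2980 for all genes tested in HCC1500, and 66 of the 77 lay below that median. The members summed to 43057 in this library and to 20643 to 20914 in the other HG cultures of the line. HCC1500 is therefore given first without this library, with 3 HG cultures, and then with it.

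Glucose changes were tested line by line with limma on log2(value + 1), and a change was called where the Benjamini-Hochberg adjusted p over all genes tested was below 0.05. In MDA-MB-175, 23 of the 77 members fell and 1 rose with high glucose, where 13.7% of all genes fell and 11.9% rose. The median change of the members was -0.09 log2 units against -0.02 for all genes, and 59 of 77 estimates were below 0. Among those called, 16 MRPL members fell and none rose, while 7 MRPS members fell and MRPS6 rose. The size of this count rested on single libraries: 13 members fell without LG replicate 1, without LG replicate 2 or without HG replicate 3, 14 without HG replicate 2 or without HG replicate 4, and 29 without LG replicate 4. Shares of all genes are not given for fits that left out 1 sample, so those counts describe the calls of the members only. Several libraries of the line differed from their group along exon length. In LG replicate 1, which was higher for shorter genes (Spearman correlation with exon length -0.35), 64 of 77 members were above the mean of the other LG cultures. In HG replicate 3 the relation was the reverse (0.31), and 14 of 77 were above the mean of the other HG cultures. HG replicate 1 was again higher for shorter genes (-0.37), with 71 of 77 above, and 22 members fell without it. With a length and GC trend removed from every library, 29 members fell and 2 rose, beside 17.5% and 14.1% of all genes.

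In ZR-75-30 the members moved both ways, with 21 lower and 15 higher, beside 22.7% of all genes lower and 23.4% higher. Their median change was -0.05 against 0.01 for all genes. Of the MRPL members 14 were lower and 8 higher, and of the MRPS members 7 each, MRPS30 of the large subunit among the higher. When values were rescaled to CPM, the reads of a gene per fixed number of reads in the sample, 26 members were lower and 12 higher, beside 26.3% and 21.2% of all genes.

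In HCC1500 without HG replicate 3, 34 members were lower and 12 higher. Here 37.7% of all genes were lower and 20.9% higher, and the members' median of -0.11 lay at that of all genes, -0.12. Rescaling by the median of ratios moved the median of all genes to -0.01 and that of the members to 0.01, and 16 members were then lower and 22 higher, beside 28.2% and 28.7% of all genes. Of the 34 members lower on the deposited scale, 16 were also lower after rescaling and none was higher, and all 12 higher members were also higher. With HG replicate 3 included, no member was called lower and 3 were called higher, at a median of 0.15 against -0.06 for all genes, where 13% of all genes were lower and 7.46% higher. The 3 were MRPS6, MRPL32 and MRPS22. Changes in HCC1500 below are given on the deposited scale, and the median change of all genes, -0.12, is the level to read them against.

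Members whose LG and HG samples did not overlap were also counted. In MDA-MB-175, 13 members had every HG value below every LG value and 1 had every HG value above (all genes: 13.9% and 12.7%). ZR-75-30 had 21 such members lower and 12 higher (all genes: 21.1% and 20.9%). HCC1500 without HG replicate 3 had 34 lower and 10 higher (all genes: 37.1% and 21%).

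**Figure D1:**
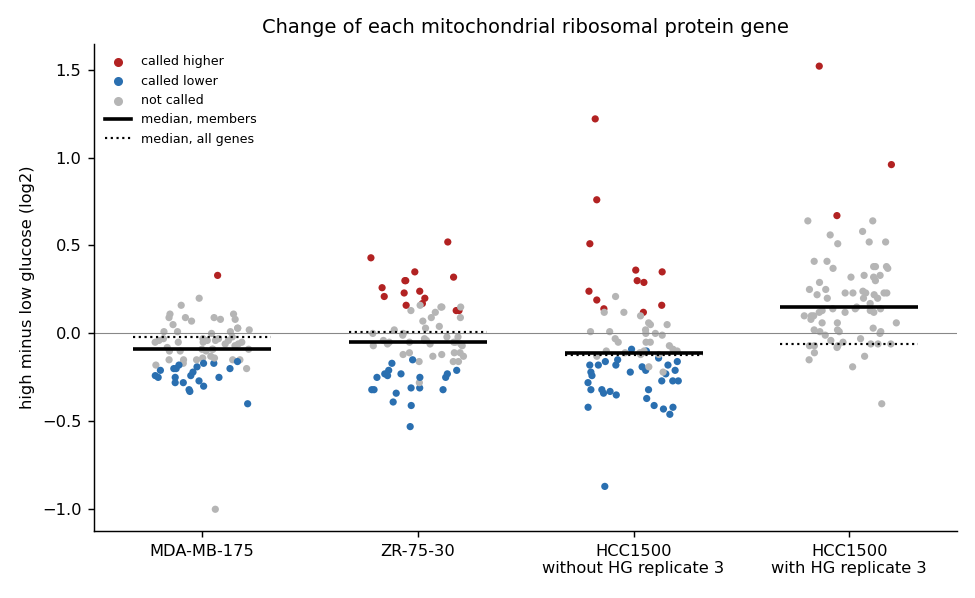
Change of each member with high glucose (log2, HG minus LG), 1 point per gene spread sideways at random, in the 3 lines, with HCC1500 shown without and with HG replicate 3; color gives the call, solid bars the median of the members and dotted bars that of all genes, and the read-through row of MRPS17 is not drawn. Among the points drawn MRPS6 in HCC1500 lies highest (1.22, and 1.52 with HG replicate 3), and the median of the members in HCC1500 moves from -0.11 to 0.15 when that library is included.

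Summed over all members, the normalized read count fell from 22013 ± 656 (SD, n = 4) in LG to 20460 ± 893 (n = 4) in HG in MDA-MB-175, with the highest HG culture (21696) inside the LG range of 21372 to 22898. In ZR-75-30 the sums were 29060 ± 627 and 28382 ± 899, and the ranges overlapped. In HCC1500 they were 21498 ± 309 and 20780 ± 136 (n = 3), and the ranges did not overlap. No test was run on the sums. As a share of all deposited values the members took 0.357% of MDA-MB-175 LG and 0.327% of MDA-MB-175 HG. Every LG culture of that line (0.354% to 0.363%) was above every HG culture (0.318% to 0.342%). The shares were 0.4% and 0.381% for ZR-75-30, again without overlap (0.391% to 0.41% against 0.373% to 0.386%). HCC1500 had 0.38% and 0.372%, with overlapping ranges (0.374% to 0.383% against 0.371% to 0.375%, n = 3 in HG).

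Of the 77 members, 8 were called lower in every line: MRPL3, MRPL13, MRPL15, MRPL20, MRPL24, MRPL40, MRPL51 and MRPS11. Of all 14572 genes tested in every line, 6.74% were lower in all 3. No member was higher in all 3, beside 3.73% of all genes. The fits of the 3 lines share no samples, but the cultures were processed in 1 study, and the common scale of HCC1500 enters its calls. After median-of-ratios rescaling 5 members were lower in every line (MRPL15, MRPL20, MRPL24, MRPS11 and MRPS26), and DESeq2 on the recovered reads left MRPL20 and MRPL24. With HCC1500 HG replicate 3 none was. The count was 4 without MDA-MB-175 LG replicate 2 and 5 without LG replicate 1, HG replicate 2 or HG replicate 3 of that line. The 6.74% of all genes belongs to the fits on the deposited scale without HCC1500 HG replicate 3. Under other settings and with further samples left out, no share of all genes is given beside the counts.

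MRPL20, a large subunit protein, had LG values of 223, 198, 233 and 211 and HG values of 201, 172, 168 and 169 in MDA-MB-175. ZR-75-30 gave 210, 189, 230 and 199 in LG and 161, 149, 148 and 164 in HG. HCC1500 gave 263, 255, 263 and 251 in LG and 200, 197 and 200 in HG replicates 1, 2 and 4, with 569 in replicate 3. Leaving that library aside, the conditions did not overlap in ZR-75-30 and HCC1500, and in MDA-MB-175 a single HG culture (201) passed the lowest LG culture. The falls were 0.28 ± 0.07 (log2, SE; adjusted p = 0.00968), 0.41 ± 0.07 (adjusted p = 1.2e-04) and 0.37 ± 0.05 (adjusted p = 3.2e-06), and the change did not pass the test for a difference between lines (adjusted p = 0.488).

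MRPL24, also of the large subunit, was at 612, 547, 559 and 526 in MDA-MB-175 LG and at 493, 440, 407 and 452 in HG. In ZR-75-30 it was at 877, 828, 847 and 800 in LG and at 720, 716, 756 and 665 in HG. In HCC1500 it was at 187, 206, 201 and 207 in LG and at 169, 138 and 171 in HG, with 419 in replicate 3. Apart from that library, all HG cultures were below all LG cultures in every line. Falls of 0.33 ± 0.06, 0.23 ± 0.05 and 0.33 ± 0.07 had adjusted p-values of 9.0e-04, 3.6e-04 and 7.2e-04. MRPL20 and MRPL24 kept their calls in every line under each alternative that left out HCC1500 HG replicate 3.

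MRPL51, the member with the highest mean level per exon length over the lines, changed unequally. MDA-MB-175 went from 1142, 1034, 1108 and 1017 in LG to 982, 917, 887 and 988 in HG. ZR-75-30 went from 1311, 1214, 1266 and 1275 to 943, 1035, 1001 and 885. HCC1500 went from 640, 670, 671 and 637 to 612, 617 and 615, with 1568 in replicate 3. The conditions were apart in all 3 lines without that library, but the fall of 0.39 ± 0.05 in ZR-75-30 was larger than those of 0.19 ± 0.05 in MDA-MB-175 and 0.09 ± 0.03 in HCC1500 (adjusted p of the difference between lines = 0.00188). The HCC1500 estimate is above the median change of all genes in that line, and it was 0.03 ± 0.03 after median-of-ratios rescaling (adjusted p = 0.501).

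The other members lower in every line fell by 0.16 to 0.34 log2 units. MRPL3, a large subunit protein, fell by 0.17 ± 0.04, 0.23 ± 0.04 and 0.22 ± 0.05. MRPL15 fell by 0.20 ± 0.06, 0.21 ± 0.06 and 0.28 ± 0.05. MRPS11, of the small subunit, fell by 0.24 ± 0.08, 0.34 ± 0.07 and 0.32 ± 0.06. Its LG and HG cultures overlapped in MDA-MB-175 (203 to 248 against 170 to 218; adjusted p = 0.0369) and not in the others, and in MDA-MB-175 it was called by 2 of the 8 fits that left out 1 sample and not by DESeq2. MRPL46, whose gene begins next to that of MRPS11 on the opposite strand of chromosome 15, was called in no line, with changes of -0.08 ± 0.08, 0.02 ± 0.09 and -0.19 ± 0.08. MRPL40 fell by 0.25 ± 0.08, 0.25 ± 0.06 and 0.27 ± 0.08, and MRPL13 by 0.16 ± 0.06, 0.17 ± 0.04 and 0.32 ± 0.04. In MDA-MB-175 MRPL15 was called in 6 and MRPL40 in 4 of those 8 fits, and DESeq2 did not call MRPL40. The adjusted p of MRPL13 there was 0.046, and it lost its call on leaving out any of LG replicates 1, 2 and 4 or HG replicates 2, 3 and 4. In HCC1500 neither MRPL3 nor MRPL40 was called after median-of-ratios rescaling.

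**Figure D2:**
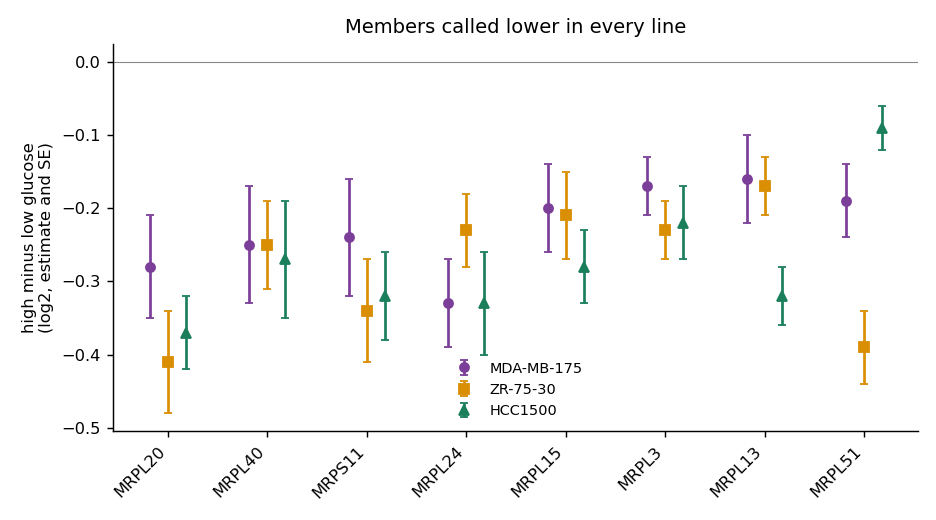
Change with high glucose (log2, estimate and SE from limma) of the 8 members called lower in every line, with HCC1500 fitted without HG replicate 3. All 24 estimates are below 0, between -0.41 and -0.09.

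RefSeq promoter records, here the 250 bases before the transcription start, exist for 67 of the 76 symbols in the table used. A short list of motifs of factors known from genes of mitochondrial proteins was searched on both strands: CCGGAAG (the core bound by GABP and other ETS factors), CGCATGCG (NRF1), AAGATGG (YY1), CACGTG (the E-box of MYC) and GGGCGGG (SP1). CCGGAAG was in 22 of the 67 member promoters (32.8%), against 8.82% of all 27305 promoters and 14.1% of the 11358 promoters of genes in the expression table. AAGATGG was in 7 (10.4%, against 3.77% and 3.3%), and CGCATGCG in 3 (4.48%, against 1.86% and 3.01%). CACGTG was in 6 (8.96%, against 6.49% and 8.65%), and GGGCGGG in 33 (49.3%, against 31.4% and 49.8%). Of the 6 members lower in every line that have a record, MRPL20, MRPL40, MRPL3 and MRPL51 held CCGGAAG, and MRPL24 and MRPS11 held none of the 5 motifs. The 4 are shown on the gene's strand with CCGGAAG or its reverse complement and GGGCGGG in capitals (GRCh38.p14; MRPL20, chr1:1407294-1407543, minus; MRPL40, chr22:19432295-19432544, plus; MRPL3, chr3:131502972-131503221, minus; MRPL51, chr12:6493263-6493512, minus).
MRPL20: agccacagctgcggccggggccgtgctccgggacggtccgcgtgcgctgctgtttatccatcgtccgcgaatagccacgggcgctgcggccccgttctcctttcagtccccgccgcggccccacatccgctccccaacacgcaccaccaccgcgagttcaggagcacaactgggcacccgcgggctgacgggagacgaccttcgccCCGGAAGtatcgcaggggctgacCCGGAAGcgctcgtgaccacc
MRPL40: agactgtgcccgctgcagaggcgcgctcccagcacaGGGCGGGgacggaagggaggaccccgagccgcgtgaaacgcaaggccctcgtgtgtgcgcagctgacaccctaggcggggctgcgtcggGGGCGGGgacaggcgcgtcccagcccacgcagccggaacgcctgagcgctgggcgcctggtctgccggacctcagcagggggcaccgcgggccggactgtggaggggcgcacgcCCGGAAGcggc
MRPL3: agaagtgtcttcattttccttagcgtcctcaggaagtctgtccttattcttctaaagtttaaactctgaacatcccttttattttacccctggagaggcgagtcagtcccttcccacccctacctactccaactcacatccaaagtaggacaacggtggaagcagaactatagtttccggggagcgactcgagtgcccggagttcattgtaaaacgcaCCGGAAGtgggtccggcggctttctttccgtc
MRPL51: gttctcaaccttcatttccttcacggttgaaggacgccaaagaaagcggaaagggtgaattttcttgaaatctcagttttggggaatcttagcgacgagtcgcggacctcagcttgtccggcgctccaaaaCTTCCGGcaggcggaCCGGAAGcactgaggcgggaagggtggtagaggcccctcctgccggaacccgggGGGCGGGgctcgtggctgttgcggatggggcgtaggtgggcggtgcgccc

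Changes with glucose are given for members with and without CCGGAAG, with no test between them. In MDA-MB-175, 7 of 22 with the motif fell and none rose (median -0.15), and 11 of 45 without it fell and 1 rose (median -0.07). In ZR-75-30, 6 of 22 fell and 2 rose (median -0.11), against 12 and 11 of 45 (median -0.04). In HCC1500, 10 of 22 fell and 5 rose (median -0.09), against 20 and 7 of 45 (median -0.12). Of all genes, 13.7% fell and 11.9% rose in MDA-MB-175 (median -0.02). The shares were 22.7% and 23.4% in ZR-75-30 (median 0.01), and 37.7% and 20.9% in HCC1500 (median -0.12). No split by CCGGAAG is given for genes outside the members, so this split cannot be read as particular to them. A letter match is a description of the window and not a bound site.

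MRPS6, a small subunit protein, had the largest rise of any member. In MDA-MB-175 it went from 301, 305, 292 and 283 in LG to 392, 362, 354 and 378 in HG. In ZR-75-30 it went from 305, 280, 250 and 317 to 328, 329, 323 and 293. In HCC1500 it went from 347, 366, 361 and 377 to 856, 868 and 820, with 1913 in replicate 3. The conditions were apart in MDA-MB-175 and HCC1500 and overlapped in ZR-75-30. The rise was 0.33 ± 0.05 in MDA-MB-175 (adjusted p = 2.0e-04), 1.22 ± 0.04 in HCC1500 (adjusted p = 2.5e-14) and 0.15 ± 0.07 in ZR-75-30 (adjusted p = 0.0833), and its test for a difference between lines had the smallest p of all members (adjusted p = 6.0e-10). With HG replicate 3 the HCC1500 estimate was 1.52 (adjusted p = 0.00383).

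MRPS6 shares 405 exon bases on the same strand of chromosome 21 with SLC5A3, the sodium/myo-inositol cotransporter gene, and with an unnamed gene (ENSG00000272657). Reads from these bases cannot be assigned to 1 gene by position, and how the authors' counting treated them is not given in the sources used here, so the values of MRPS6 are uncertain to that extent. SLC5A3 was at 198, 237, 253 and 261 in MDA-MB-175 LG and at 297, 308, 351 and 329 in HG. It was at 179, 187, 156 and 181 in ZR-75-30 LG and at 206, 247, 244 and 285 in HG. In HCC1500 it was at 617, 618, 610 and 654 in LG and at 2749, 2792 and 2732 in HG, with 1121 in replicate 3. SLC5A3 rose without overlap in every line, by 0.44 ± 0.08, 0.47 ± 0.09 and 2.14 ± 0.03. In HG replicate 3 of HCC1500 the pair moved apart, MRPS6 being the highest of the HG cultures and SLC5A3 the lowest. RefSeq gives MRPS6 and SLC5A3 the same promoter window (GRCh38.p14, chr21:34073328-34073577, plus), shown because both genes rose, with GGGCGGG in capitals. It holds that motif 4 times, 2 of them overlapping in 1 run of capitals, and none of the other 4 motifs.
MRPS6 and SLC5A3: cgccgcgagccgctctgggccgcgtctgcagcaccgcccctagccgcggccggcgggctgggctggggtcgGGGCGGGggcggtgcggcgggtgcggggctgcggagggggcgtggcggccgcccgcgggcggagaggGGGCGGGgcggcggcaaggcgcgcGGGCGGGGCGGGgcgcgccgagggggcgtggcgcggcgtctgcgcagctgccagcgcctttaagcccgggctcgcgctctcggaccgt

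**Figure D3:**
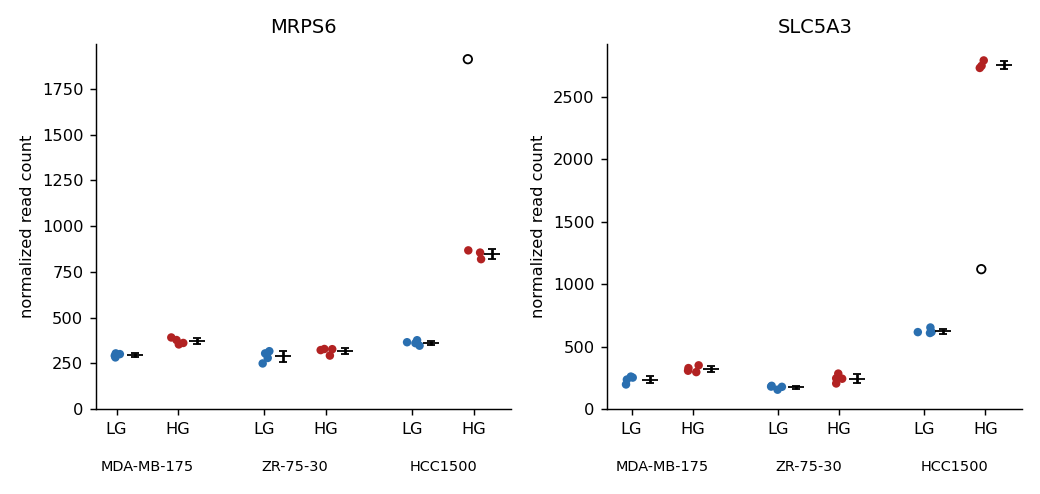
Normalized read counts of MRPS6 and SLC5A3 in each culture of the 3 lines at low glucose (LG, blue) and high glucose (HG, red), with mean and SD in black. The open circle is HCC1500 HG replicate 3, left out of mean and SD: for MRPS6 it lies above the other HG cultures (1913 against 820 to 868), and for SLC5A3 below them (1121 against 2732 to 2792).

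MRPL32, a large subunit protein that is matured by a protease inside the organelle, rose in HCC1500 from 244, 249, 250 and 249 in LG to 425, 422 and 412 in HG, with 747 in replicate 3. The conditions did not overlap, and the rise was 0.76 ± 0.04 (adjusted p = 4.4e-11). It was 0.16 ± 0.06 in both other lines, which passed the test in ZR-75-30 (adjusted p = 0.0254) and not in MDA-MB-175 (adjusted p = 0.0809), and the difference between lines passed (adjusted p = 1.7e-06). After median-of-ratios rescaling MRPL32 was higher in all 3 lines, but in ZR-75-30 the call was lost after CPM rescaling and in 5 of the 8 fits that left out 1 sample, and in MDA-MB-175 only 1 of 8 such fits made it. MRPS22 and MRPL44 rose in HCC1500 by 0.51 ± 0.06 and 0.36 ± 0.05 (adjusted p = 1.2e-06 and 3.5e-06), and neither was called in another line. MRPL44 lost its call with HG replicate 3 (0.56, adjusted p = 0.0575).

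In ZR-75-30 the largest rise was that of MRPL10, a protein of the stalk of the large subunit. Its values were 178, 208, 196 and 204 in LG and 272, 289, 292 and 271 in HG, so that every HG culture was above every LG culture. The rise was 0.52 ± 0.06 (adjusted p = 1.6e-06), against 0.08 ± 0.06 in MDA-MB-175 and 0.05 ± 0.05 in HCC1500, and it differed between lines (adjusted p = 5.5e-05). MRPS5, a small subunit protein, rose by 0.43 ± 0.06 in ZR-75-30 (adjusted p = 1.4e-05). It also passed the test in HCC1500 (0.14 ± 0.05, adjusted p = 0.0273), where the call was lost without any of LG replicates 3 and 4 and HG replicate 1. MRPS30 and MRPL2, both of the large subunit, rose by 0.35 ± 0.05 and 0.32 ± 0.08 in ZR-75-30, and neither was called elsewhere. MRPS5 shares 3201 exon bases on the same strand with an unnamed gene (ENSG00000289685), and MRPL2 shares 633 with another (ENSG00000288564). Reads from shared bases cannot be assigned to 1 gene by position, so the values of MRPS5 and MRPL2 are uncertain to that extent.

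The largest fall of a well-measured member in ZR-75-30 was that of MRPL17, a large subunit protein, from 715, 681, 683 and 649 to 473, 494, 472 and 443. HCC1500 went from 349, 389, 364 and 398 to 287, 299 and 312, with 679 in replicate 3. MDA-MB-175 gave 453, 419, 452 and 398 in LG and 445, 427, 384 and 412 in HG. The conditions overlapped in MDA-MB-175 and were apart in the others, leaving aside HCC1500 replicate 3, with changes of -0.05 ± 0.06 (adjusted p = 0.625), -0.53 ± 0.05 (adjusted p = 2.4e-08) and -0.32 ± 0.05 (adjusted p = 2.9e-05). They differed between lines (adjusted p = 3.9e-05).

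In HCC1500 the largest fall was that of MRPL23, a large subunit protein at the peptide exit side, from 43.3, 46.1, 51.8 and 47.8 in LG to 27.1, 18.4 and 32.8 in HG, with 94.3 in replicate 3. The conditions were apart without that library, and the fall was 0.87 ± 0.16 (adjusted p = 1.9e-04). The HG cultures spread more than for most members (SD 0.41 on the log2 scale). MDA-MB-175 showed a fall of 0.28 ± 0.07 (adjusted p = 0.00631) and ZR-75-30 a change of -0.02 ± 0.07 (adjusted p = 0.86), and the difference between lines passed (adjusted p = 3.7e-04). MRPL53, MRPS26 and MRPS9 fell in HCC1500 by 0.46 ± 0.07, 0.43 ± 0.09 and 0.42 ± 0.06, and MRPL23, MRPL53, MRPS26 and MRPS9 were all lower after median-of-ratios rescaling. MRPL53 has an annotated transcript of 496 exon bases and shares 499 exon bases on the same strand with CCDC142. Reads from shared bases cannot be assigned to 1 gene by position, so the values of MRPL53 are uncertain.

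In MDA-MB-175 the largest fall among well-measured members was 0.40 ± 0.13 for MRPL41, a large subunit protein (adjusted p = 0.031). Its values were 160, 183, 158 and 105 in LG and 123, 108, 112 and 107 in HG. One LG culture lay below all HG cultures, and the call was lost on leaving out any of LG replicates 1, 2 and 3 or HG replicates 2, 3 and 4. MRPL52 fell by 0.32 ± 0.09 (adjusted p = 0.0202) with overlapping conditions. The read-through row of MRPS17 had the largest fitted falls, 1.05 ± 0.34 in MDA-MB-175 and 1.86 ± 0.45 in ZR-75-30, but its values were between 0 and 18.3 in all 24 samples and its reads can be shared with MRPS17 itself. MRPS17 was not called in MDA-MB-175 (-0.03 ± 0.08) and fell by 0.25 ± 0.08 in ZR-75-30.

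Some members were called in opposite directions in different lines. MRPS15, a small subunit protein, was at 243, 220, 227 and 234 in ZR-75-30 LG and at 283, 282, 290 and 283 in HG. In HCC1500 it was at 455, 449, 452 and 438 in LG and at 358, 366 and 337 in HG, with 963 in replicate 3. All HG cultures were above the LG cultures in ZR-75-30 and below them in HCC1500 without replicate 3. The changes were 0.30 ± 0.05 (adjusted p = 1.5e-04) and -0.34 ± 0.04 (adjusted p = 1.2e-06), with 0.11 ± 0.07 (adjusted p = 0.298) in MDA-MB-175, and the difference between lines passed (adjusted p = 1.6e-06).

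MRPS27, a small subunit protein with RNA-binding repeats, fell in MDA-MB-175 from 534, 501, 529 and 514 to 479, 444, 433 and 458. It rose in ZR-75-30 from 620, 632, 631 and 664 to 763, 709, 712 and 683. In HCC1500 it went from 783, 851, 785 and 803 to 683, 742 and 738, with 910 in replicate 3. The conditions were apart in every line without that library. Changes were -0.20 ± 0.05, 0.17 ± 0.04 and -0.16 ± 0.04, and their difference had an adjusted p of 2.0e-05. In HCC1500 the call was lost after median-of-ratios rescaling (-0.04 ± 0.04), with the sign unchanged.

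Over all members, MRPL43, MRPS9, MRPS15, MRPS24 and MRPS27 were higher in ZR-75-30 and lower in HCC1500 (7.67% of all genes tested in every line), and MRPL50 was the reverse (3.84%). MRPS24 and MRPS27 were lower in MDA-MB-175 and higher in ZR-75-30 (1.05%), and MRPL27 was lower in MDA-MB-175 and higher in HCC1500 (180 of the 14572 genes). Some of these limma calls had overlapping conditions. These were MRPL43 and MRPS9 in ZR-75-30 (adjusted p = 0.0495 and 0.0166), MRPL27 in HCC1500 (0.0455) and MRPS24 in MDA-MB-175 (0.0339). In the same direction, 16 members were lower in both MDA-MB-175 and HCC1500, beside 10.5% of all genes. ZR-75-30 and HCC1500 shared 15 lower members (13.9% of all genes), and MDA-MB-175 and ZR-75-30 shared 10 (8.87%). MRPS6 was the only member higher in both MDA-MB-175 and HCC1500 (5.65% of all genes), 3 were higher in both ZR-75-30 and HCC1500 (8.23%), and none in both MDA-MB-175 and ZR-75-30 (7.39%). In no line were 15 of the members called, beside 22.2% of all genes. Among them were MRPS18A, MRPS18B and MRPS18C, related proteins that hold different places in the ribosome, the first of them in the large subunit.

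A model of all 23 samples tested whether the change with glucose differed between lines. It did for 32 of 77 members (41.6%), beside 48.6% of all genes. The count was 19 of the 47 MRPL and 13 of the 30 MRPS members, and 8 members in all when HCC1500 HG replicate 3 was included, beside 29.3% of all genes.

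At low glucose, 8 members differed between MDA-MB-175 and ZR-75-30 by more than 1 log2 unit, 13 between MDA-MB-175 and HCC1500 and 16 between ZR-75-30 and HCC1500, beside 33%, 42.3% and 44.6% of all genes. With glucose 1 member in each line changed by that much, beside 2.68%, 7.24% and 7.67% of all genes: MRPS6 in HCC1500, and in the other lines the poorly measured read-through row of MRPS17. On the deposited scale, 16 members were higher and 31 lower in MDA-MB-175 than in ZR-75-30, beside 43.8% and 28.3% of all genes. Against HCC1500, MDA-MB-175 had 30 members higher and 27 lower, beside 37.9% and 41.6% of all genes. ZR-75-30 had 34 higher and 28 lower than HCC1500, beside 31.8% and 47.2%. These splits depend on the scale between lines, which also moves all genes. After CPM rescaling MDA-MB-175 had 41 members higher and 20 lower than ZR-75-30 (all genes: 52.4% and 20.7%) and 24 higher and 35 lower than HCC1500 (34.9% and 46.2%), and ZR-75-30 had 24 higher and 43 lower than HCC1500 (23.7% and 56.6%). After median-of-ratios rescaling the same comparisons gave 13 and 40 (all genes: 40.7% and 31.7%), 34 and 26 (39.6% and 39.8%), and 43 and 22 (35.7% and 43.2%). The median of all genes in ZR-75-30 minus HCC1500 was -0.23 as deposited, -0.36 in CPM and -0.11 by median of ratios.

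MRPL45, a large subunit protein that anchors the ribosome at the inner membrane, had the largest difference. MDA-MB-175 LG had 350, 352, 331 and 353. ZR-75-30 LG had 2056, 1985, 2002 and 2170, and HCC1500 LG had 143, 165, 159 and 160. The 3 lines did not overlap. ZR-75-30 was above MDA-MB-175 by 2.56 ± 0.05 log2 units (adjusted p = 9.5e-24), given as -2.56 for the reverse, and above HCC1500 by 3.71 ± 0.05 (adjusted p = 3.1e-27). In ZR-75-30 it also rose with glucose, by 0.30 ± 0.04 (adjusted p = 2.5e-06), to 2580, 2540, 2530 and 2443.

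MRPL13, a large subunit protein on chromosome 8, was at 2535, 2429, 2430 and 2617 in ZR-75-30 LG. It was at 577, 543, 526 and 576 in MDA-MB-175 LG and at 508, 488, 515 and 494 in HCC1500 LG. ZR-75-30 was apart from both, by 2.32 ± 0.04 against HCC1500 (adjusted p = 1.3e-23), and MDA-MB-175 minus ZR-75-30 was -2.17 ± 0.04 (adjusted p = 1.1e-22). MRPS23, a small subunit protein encoded on chromosome 17 like MRPL45, was also highest in ZR-75-30, with LG values of 1166 to 1258 against 318 to 333 in MDA-MB-175 and 338 to 368 in HCC1500.

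MRPL39, a large subunit protein on chromosome 21, was low in ZR-75-30. Its LG values there were 40.4, 32.4, 32.5 and 47.3, against 174, 177, 164 and 201 in MDA-MB-175 and 150, 142, 151 and 141 in HCC1500. ZR-75-30 did not overlap with either of the others. MDA-MB-175 minus ZR-75-30 was 2.21 ± 0.13 (adjusted p = 8.6e-14) and ZR-75-30 minus HCC1500 was -1.93 ± 0.13 (adjusted p = 8.5e-13). MRPL23 was low in HCC1500, by 1.92 ± 0.11 against MDA-MB-175 and 2.22 ± 0.11 against ZR-75-30, and so was MRPS26, by 1.90 ± 0.06 and 1.85 ± 0.06. MRPL21 was higher in MDA-MB-175 than in ZR-75-30 by 1.39 ± 0.07.

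Differences of the members between lines tended to go with those of nearby genes. For the 70 members with at least 5 other measured genes within 1000000 bases (GRCh37), the member's difference between lines was set beside the median difference of those neighbors. Pearson correlations across members were 0.68 for MDA-MB-175 minus ZR-75-30, 0.84 for MDA-MB-175 minus HCC1500 and 0.69 for ZR-75-30 minus HCC1500, with Spearman values of 0.54, 0.83 and 0.65. The points share the same libraries, and members that are close together share neighbors, so these are descriptions. The signs were equal for 49, 53 and 48 of the 70. A shift of all genes between lines also moves these signs. The same values were not computed for other genes, so they cannot be read as particular to the members. Around MRPL45, 20 neighbors had a median of -2.62 in MDA-MB-175 minus ZR-75-30 and of 3.40 in ZR-75-30 minus HCC1500. Around MRPL21, 17 neighbors had a median of 1.43 in the former, and around MRPL23, 21 had one of 2.03 in MDA-MB-175 minus HCC1500. In ZR-75-30 minus HCC1500, where MRPL23 itself was at 2.22, the median of the same neighbors was only 0.45. For MRPL13 and MRPS23 the neighbors differed in the same direction by less, -1.34 (9 neighbors) and -1.14 (18 neighbors). MRPL39 had only 3 measured neighbors, all higher in MDA-MB-175 than in ZR-75-30, at a median of 2.08. MRPS21 was among several members that did not follow their surroundings. It was higher in MDA-MB-175 than in HCC1500 by 1.56, where the median of its 44 neighbors was 0.09. In ZR-75-30 minus HCC1500, MRPL24 was at 2.06 and MRPS5 at 0.23, beside neighbor medians of 0.32 and -2.36. In MDA-MB-175 minus ZR-75-30, MRPL48 was at -1.42 beside 0.46. DNA copy number was not measured in these data, and its part in these differences was not tested.

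**Figure D4:**
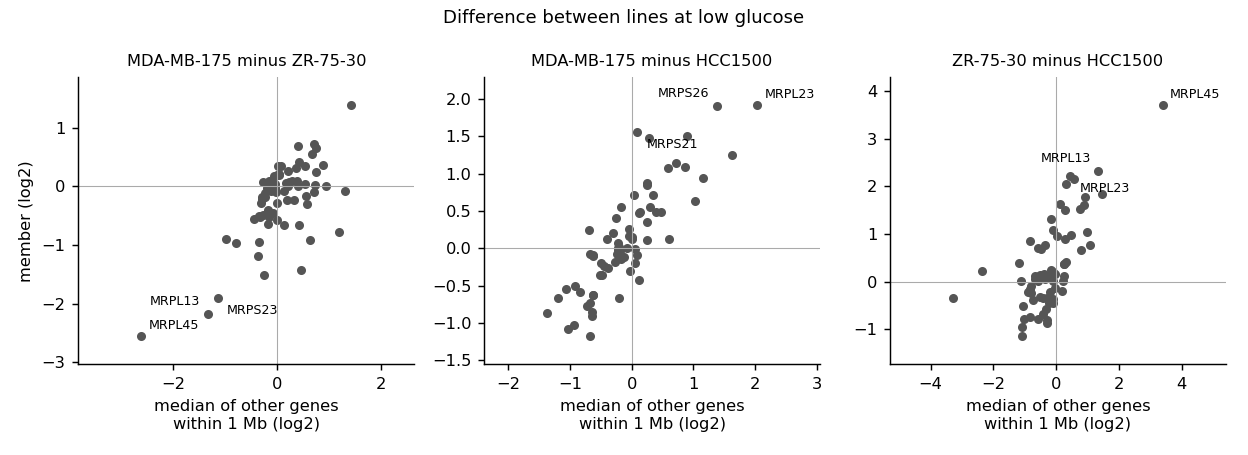
Difference between lines at low glucose (log2) of each of 70 members on the vertical axis, and the median difference of the other genes within 1 Mb on the horizontal axis, for each pair of lines. MRPL45 lies near equal values at the edge of the first and last panels (-2.56 beside -2.62, and 3.71 beside 3.40), while MRPS21 stands above a neighbor median of 0.09 in the middle panel.

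Members differed in level. Per kilobase of exon, the mean LG level over the lines was highest for MRPL51 (1112 per kilobase), MRPL13 (942) and MRPL24 (604), and lowest for the MRPS17 read-through row (4.67), MRPL30 (19.8) and MRPL42 (20.5). Single lines ranked differently at the top. MRPL51 had 1197, 1410 and 729 in the 3 lines and MRPL13 had 441, 1986 and 398. MRPS7, with 453, 338 and 751, was the highest member in HCC1500. The MRPL42 value is divided by an annotated transcript of 15557 exon bases, which lowers it. MRPL30 was the least repeatable member, with 33.3, 8.04, 75.2 and 176 in the 4 MDA-MB-175 LG cultures. Its SD of 1.83 log2 units there compares with at most 0.41 in any group for all other members but the read-through row, and no change of it was called.

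The rest of the mitochondrial translation machinery was read from gene lists drawn up beside the members. Counts called in all these lists are to be read beside those of all genes. Of all genes 13.7%, 22.7% and 37.7% fell and 11.9%, 23.4% and 20.9% rose in the 3 lines. By median of ratios 28.2% fell and 28.7% rose in HCC1500. The 7 further mitoribosomal proteins with other names had medians of -0.14, -0.16 and -0.13 in the 3 lines. None was called in MDA-MB-175, ZR-75-30 had 2 lower and 1 higher, and HCC1500 had 3 lower and 1 higher. MRP63, a large subunit protein, fell by 0.61 ± 0.10 in ZR-75-30 and by 0.38 ± 0.09 in HCC1500. DAP3, a GTP-binding protein of the small subunit, rose in ZR-75-30 (0.13 ± 0.03) and fell in HCC1500 (-0.15 ± 0.03).

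Assembly factors of the mitoribosome numbered 28 in MDA-MB-175 and 27 in each other line. MDA-MB-175 had 5 lower and none higher (median -0.08), and ZR-75-30 had 6 lower and 5 higher (median -0.02). HCC1500 had 12 lower and 7 higher (median -0.18), and 10 lower and 12 higher by median of ratios. NOA1, a GTPase of small subunit assembly, rose by 0.58 ± 0.05 in ZR-75-30 and fell by 0.35 ± 0.07 in HCC1500. Of 17 translation factors, 2, 1 and 7 fell and 1, 5 and 4 rose in the 3 lines, and HCC1500 had 5 lower and 7 higher by median of ratios. Their medians were -0.01, 0.05 and -0.03. GUF1, the back-translocating GTPase of mitochondria, fell in every line, by 0.20 ± 0.05, 0.45 ± 0.05 and 0.35 ± 0.05. MTIF3, an initiation factor, rose by 0.34 ± 0.06 in ZR-75-30 and fell by 0.44 ± 0.08 in HCC1500.

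Of 20 mitochondrial tRNA synthetases, 3, 5 and 11 fell and 0, 1 and 1 rose, with medians of -0.07, -0.00 and -0.28. By median of ratios HCC1500 had 10 lower and 3 higher (median -0.16). CARS2, which charges the cysteine tRNA, fell in every line, by 0.22 ± 0.08, 0.33 ± 0.08 and 0.36 ± 0.07. Of 13 genes for upkeep and transcription of mitochondrial DNA, 1, 3 and 3 fell and 0, 2 and 5 rose, with medians of -0.05, -0.09 and 0.02. By median of ratios HCC1500 had 2 lower and 7 higher. KIAA0391, the nuclease subunit of mitochondrial RNase P, fell in every line at its main row, by 0.15 ± 0.05, 0.57 ± 0.06 and 0.73 ± 0.05.

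The 13 mRNAs made from mitochondrial DNA, which the mitoribosome translates, were called in opposite directions in MDA-MB-175 and ZR-75-30. In MDA-MB-175, 12 of 13 rose and none fell, with a median of 0.38. In ZR-75-30, 10 fell and none rose, with a median of -0.40. In HCC1500, 7 rose and 4 fell, with a median of 0.19 (9 and 1 by median of ratios). MT-ND2, a complex I subunit, had mean values of 10740, 19938 and 14471 in LG and of 14820, 15621 and 24475 in HG, with changes of 0.47 ± 0.06, -0.36 ± 0.08 and 0.76 ± 0.04.

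Nuclear genes for subunits of oxidative phosphorylation were mostly lower among those called in MDA-MB-175 and HCC1500. Of 79, 80 and 81 tested, 34, 18 and 52 fell and 3, 24 and 7 rose, with medians of -0.15, 0.05 and -0.22. After median-of-ratios rescaling HCC1500 had 39 lower and 13 higher. ATP5G1, for the ring subunit of ATP synthase, fell in every line, by 0.48 ± 0.07, 0.35 ± 0.04 and 0.81 ± 0.09, and NDUFB1, of complex I, by 0.32 ± 0.07, 0.35 ± 0.06 and 0.75 ± 0.07. Cytosolic ribosomal proteins, by contrast, rose in 78 of 86 cases in ZR-75-30 (1 fell, median 0.41), in 51 of 86 in HCC1500 (11 fell, median 0.12; 67 and 5 by median of ratios, median 0.24) and in 10 of 84 in MDA-MB-175 (4 fell, median 0.02). Medians in MDA-MB-175 stayed near 0, and the split became 9 higher and 10 lower after CPM rescaling.

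The 9 nuclear regulators known from mitochondrial gene expression had medians of 0.18, 0.30 and 0.39, with 4, 5 and 4 higher and 0, 1 and 0 lower (7 and 0 in HCC1500 by median of ratios). YY1, a zinc finger factor, rose by 0.16 ± 0.04, 0.33 ± 0.04 and 0.73 ± 0.03. ESRRA, an orphan nuclear receptor, rose by 0.37 ± 0.10, 0.67 ± 0.08 and 0.39 ± 0.05. PPARGC1A, a coactivator, rose by 1.02 ± 0.17 in MDA-MB-175 (mean values 16.5 and 34) and by 1.73 ± 0.14 in ZR-75-30 (49.3 and 164), and changed by 0.86 ± 0.39 in HCC1500 (1.05 and 2.8, adjusted p = 0.0713). GABPB1, a subunit of GABP, fell by 0.29 ± 0.06 in ZR-75-30 and was not called elsewhere. NRF1 was called in no line.

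With HCC1500 HG replicate 3 included, few genes of these lists were called in HCC1500, where 13% of all genes were lower and 7.46% higher. The nuclear oxidative phosphorylation genes had 1 higher and none lower, with a median of 0.08, and the cytosolic ribosomal proteins 1 higher and none lower, with a median of 0.48. The mRNAs of mitochondrial DNA had 2 higher and none lower (median 0.22), and the tRNA synthetases 1 higher and 4 lower (median -0.15). Of the assembly factors 1 was higher and none lower (median 0.06), and of the translation factors 1 was higher and 2 lower (median 0.08). The upkeep and transcription genes had 4 higher and 1 lower (median 0.24), the regulators 3 higher and none lower (median 0.52), and the 7 further mitoribosomal proteins none of either (median 0.15).

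**Figure D5:**
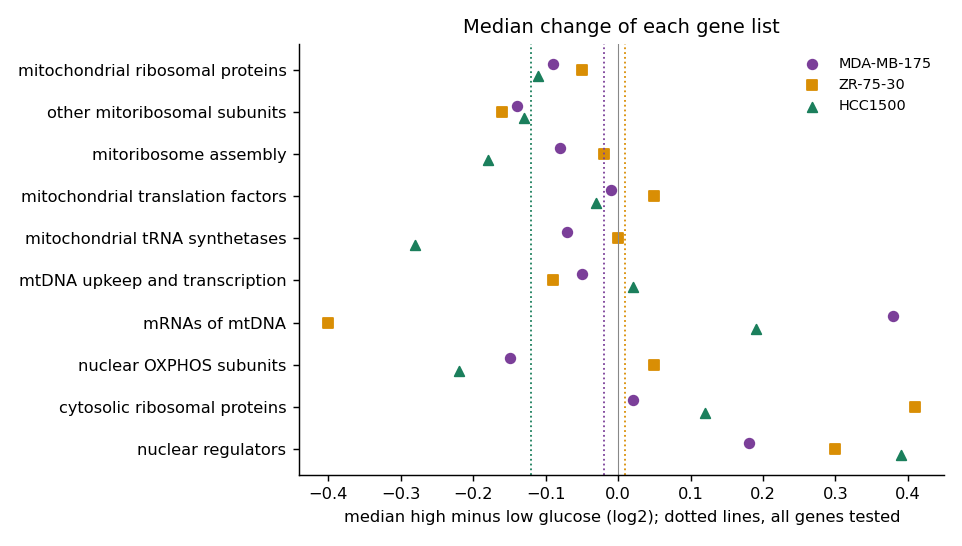
Median change with high glucose (log2) of each gene list in each line (HCC1500 without HG replicate 3), with dotted lines at the median of all genes tested in the line of that color. The mRNAs of mitochondrial DNA lie at 0.38, -0.40 and 0.19, while the mitochondrial ribosomal proteins lie at -0.09, -0.05 and -0.11.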

How the data were processed

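RNA-seq values of 24 cultures were taken from 1 table of normalized gene-level signal deposited by the authors. Its values are normalized read counts: 100% of them are whole reads (tolerance 0.001) divided by 1 factor per sample that the authors set and that could not be identified as CPM. The labels name edgeR and build hg38, the study's methods (written for tumors) hg19 and Ensembl 70, and the counter and strandedness for these cell lines are not given in the sources used here. Values were read from the end of each line, because 9 lines hold a split symbol.

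Genes reaching 0.5 in 4 or more of the fitted samples were tested on log2(value + 1) with limma 3.58.1 (R 4.3.3, trend) in each line, and a model of 6 group means over 23 samples gave the differences between lines. Fold changes on this scale understate changes of low genes. HCC1500 HG replicate 3 was left out. p-values were adjusted by Benjamini-Hochberg over all genes. The members, lists and tests were chosen with earlier results of these data known.

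Members were named by rule: the 4 largest called rises and falls in each line, up to 5 called alike in all 3 lines, the 5 smallest p for a difference between lines, the 3 largest called differences in each direction between lines, the 3 highest and lowest levels per exon length, MRPS18A, MRPS18B and MRPS18C, and from each other list at most 2 genes called alike in the most lines. Chosen after their values were seen were MRPL3, MRPL13 and MRPL51 among those lower in every line, members with opposite calls, MRPL46, SLC5A3, DAP3, NOA1, MTIF3, PPARGC1A, GABPB1 and NRF1. Exon lengths and positions came from GENCODE 44 lifted to GRCh37 (96.3% of gene IDs matched), and promoters from RefSeq (GRCh38.p14). Of the members, 42 share exon bases with another gene, 19 of them on the same strand, which counting could not always separate.

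As an alternative, edgeR 4.0.16 (quasi-likelihood test) on the recovered reads called 4402, 7397 and 9112 genes in the 3 lines, and DESeq2 1.42.0 called 3962, 6597 and 8021. Other alternatives were pseudocounts of 0.5 and 5, other filters, CPM, TMM and median-of-ratios rescaling, removal of a length and GC trend, a replicate block, leaving out each sample, and inclusion of HCC1500 HG replicate 3. Deviations of same-numbered LG and HG cultures from their group means correlated by 0.04, 0.01 and 0.01 on average in the 3 lines over 13310 genes, so the numbers were not taken as pairs.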

Additional observations from a re-analysis of the deposited data

Results flagged for a closer look

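Among the 39 named members, 195 groups of 4 samples were examined for a sample far from the others, and 12 held one. Chance flags about 1 in 20 groups. In MDA-MB-175 these were MRPL20 in HG replicate 1 (201, nearest 172), MRPL53 in the same sample (122, nearest 102) and MRPL45 in LG replicate 3 (331, nearest 350). In ZR-75-30 LG they were MRPL21 in replicate 2 (122, nearest 140), MRPL32 in replicate 1 (452, nearest 390), MRPL42 in replicate 3 (376, nearest 395) and MRPS18B in replicate 2 (503, nearest 534). In ZR-75-30 HG they were MRPL40 in replicate 2 (156, nearest 170), MRPS18B in replicate 3 (552, nearest 501) and MRPS6 in replicate 4 (293, nearest 323). In HCC1500 LG they were MRPL32 in replicate 1 (244, nearest 249) and MRPS26 in replicate 4 (93.9, nearest 88.6). In HCC1500 HG, replicate 3 had a member median of 463, where the nearest other culture had 216, and it was the far sample for 30 of the 39 named members.

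The change with glucose differed between lines for 19 of the 39 named members in the model of all lines, beside 48.6% of all genes. Some of the 39 were named by the smallest p of this same test, so the count is no result about the members. MRPS6 (adjusted p = 6.0e-10), MRPS15 (1.6e-06), MRPL32 (1.7e-06), MRPS27 (2.0e-05), MRPL17 (3.9e-05), MRPS30 (4.7e-05), MRPL10 (5.5e-05) and MRPS9 (6.8e-05) had the smallest p-values from limma. They were followed by MRPL23 (3.7e-04), MRPS22 (3.9e-04), MRPL38 (5.1e-04), MRPL51 (0.00188), MRPL45 (0.00192), MRPL44 (0.00218), MRPL37 (0.00623), MRPS5 (0.00717), the MRPS17 read-through row (0.0109), MRPL21 (0.0183) and MRPS26 (0.0259).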

How the results depend on the processing

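Counts of members in ZR-75-30 stayed within 1.5 times those reported under every alternative. In MDA-MB-175, 2 members were higher under median-of-ratios and TMM rescaling, edgeR, DESeq2, the length and GC trend removed and the model of all lines, and 15 were lower under DESeq2. Leaving out 1 sample gave 1 to 2 higher and 13 to 29 lower. In HCC1500, median-of-ratios, TMM, edgeR and DESeq2 gave 22, 21, 20 and 20 higher and 16, 17, 16 and 13 lower, with member medians of 0.01, 0.00, 0.00 and 0.01 in place of -0.11. Of all 16235 genes, the first 3 called 4665, 4593 and 4577 higher and 4577, 4663 and 4535 lower. The construction of these scalings moves the median of all genes to near 0. The median was -0.07 with the length and GC trend removed. With HG replicate 3 it was 0.15, with 3 higher and 0 lower; 0.21 and 0 lower with median of ratios as well; and 0.10, 5 higher and 0 lower with the trend removed. Beyond the difference of that library with gene length, the cause was not tested. The 2 combined settings were chosen after seeing the data.

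Members lower in all 3 lines numbered 5 (median of ratios, TMM, edgeR), 2 (DESeq2) and 0 (each setting with HG replicate 3), and 4 to 9 on leaving out 1 sample. Members higher in all 3 numbered 1 (MRPL32; median of ratios, TMM, edgeR, DESeq2), 2 (trend removed, model of all lines), and 0 to 1 on leaving out 1 sample. The change differed between lines for 8 members with HG replicate 3 (29.3% of all genes), and for 17 with it and either correction. With it, 30 members differed between MDA-MB-175 and ZR-75-30 at low glucose.

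With the replicate number as a block, 25, 23 and 31 members were lower and 1, 15 and 10 higher in the 3 lines. Under the block, 9 were lower and 0 higher in all 3 lines, 37 differed in their change, and 49, 57 and 64 differed at low glucose. Same-numbered samples share only a number. Each setting also moves the calls of all genes. Where no value for all genes stands beside them, the counts of this section describe the calls of the members only.

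Depth limited the read-through row and MRPL30; every other member had at least 37 reads in each sample.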
